A study of Saccharomyces cerevisiae with 14 samples.

Results

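Cleavage by MazF was followed at 5 sites in yeast mRNAs of central carbon metabolism. There was 1 site in each of 3 glycolytic genes, TPI1, ENO2 and CDC19, and 1 in each of the alcohol dehydrogenase genes ADH1 and ADH2. They were all the rows that the deposited table gives for these 5 genes, 5 of its 1184 distinct sites. The cells were diploid SK1 (MAT a/alpha), a laboratory strain that enters meiosis quickly and in near synchrony. Both copies of lys2 were mutant, LYS2 stood at both ho loci and LEU2 at both ndt80 loci. NDT80 encodes the transcription factor needed to leave pachytene, so the cells of every library used here lacked that step as a shared background. PolyA RNA came from 1 library at each of 0, 1, 2, 3, 3.5, 4, 5, 6, 7 and 8 h after induction of meiosis. The series has 4 further samples at 8 h, 2 with ime4::HIS3 on both copies and 2 wild-type controls, which were not analysed here.

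MazF is a bacterial endonuclease that cuts RNA just before an ACA triplet and does not cut when the first A is methylated. In meiotic yeast the methyltransferase Ime4 and its partners methylate mRNA adenosines, mostly where the methylated A follows AG or GG and precedes C. The glycolytic genes are among the most strongly expressed of growing yeast. Glycolysis turns glucose to pyruvate, and fermentation turns pyruvate to ethanol by way of acetaldehyde. On acetate, the usual carbon source in sporulation medium, the shared reactions run in the direction of sugar synthesis.

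Each value is a cleavage efficiency: the larger the fraction, the more of the RNA was cut. Read depth is unknown for every value, which leaves no counting interval. No hour was replicated, and whether all libraries came from 1 culture is unstated. The number of sites with a value ran from 299 at 0 h to 1171 at 3.5 h, and 214 sites, called complete below, had one in all 10 libraries. All 5 sites described here were complete. The median cleavage of the complete sites was 0.926 in the 0 h library, and 0.855, 0.871 and 0.872 in the last 3.

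The sequence around each site shows what MazF had to cut. The table lists a position within the gene for each site, and these positions could be tied to reading frames of the R64 reference, the S288C genome. On the plus strand 527 of 586 sites (89.9%) started an ACA when the listed position was counted from 150 bases before the start codon, and on the minus strand 506 of 582 (86.9%) did so with 149 bases. No other offset farther than 2 bases away gave more than 24 such sites. All 5 sites were among the 1033 placed in this way. The lines give 30 bases of R64 in the sense of the mRNA, with the ACA in capitals. The SK1 bases were not read, and the table's own chromosome coordinates belong to another build than R64.
TPI1 (chr4:556023-556052, minus strand): gatgttgttgaaagACAattgaacgctgtc
ENO2 (chr8:452685-452714, plus strand): catcatagtttagaACActttatattaacg
CDC19 (chr1:73341-73370, plus strand): aattttatataaagACAtggtttttctttt
ADH1 (chr15:159900-159929, minus strand): cactaaggaaaaggACAttgtcggtgctgt
ADH2 (chr13:873643-873672, minus strand): caccaaagagaaggACAttgttagcgcagt

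The ACA of ADH1 and ADH2 followed GG, that of TPI1 and CDC19 followed AG, and that of ENO2 followed GA. Over all 1033 placed sites, GG stood before the ACA in 62.1%, AG in 27.6% and GA in 6.78%. Over every ACA of the R64 coding sequences those shares were 4.18%, 6.75% and 8.12%. The ENO2 site is 1 of 70 placed sites with GA, and has an A in place of G just before the ACA. A G stood there in 91.1% of the placed sites. Among placed complete sites the median cleavage over the hours had a median of 0.888 with GG (109 sites), 0.890 with AG (50 sites) and 0.821 with GA (15 sites).

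Within their genes, the TPI1, ADH1 and ADH2 sites lay in the coding sequence, at bases 435 of 747, 680 of 1047 and 680 of 1047 from the A of the start codon. The ENO2 and CDC19 sites lay past the stop codon, by 59 and 67 bases, where the 3′ UTR is. R64 annotates no UTR for these genes, so this place is read from the distance alone. Of all placed sites, 115 (11.1%) were past the stop codon, at a median of 57 bases. The R64 reading frames hold 8 ACA triplets in TPI1, 13 in ENO2, 24 in CDC19, 11 in ADH1 and 8 in ADH2, and the table listed 1 site in each gene. The rule by which sites were chosen remains not given in the sources used here. The nearest other ACA upstream was 103, 69, 92, 93 and 93 bases away in TPI1, ENO2, CDC19, ADH1 and ADH2, against a median of 66 over placed sites. Downstream it was 158, 52, 50, 213 and 213 bases away in the same order, against a median of 56.

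TPI1 encodes triose phosphate isomerase, which interconverts the triose phosphates made by aldolase. Its site (YDR050C, position 584, listed at chromosome 4, position 570618) had cleavage fractions of 0.885, 0.856, 0.864 and 0.827 over the libraries of 0, 1, 2 and 3 h, and of 0.887 at both 3.5 and 4 h. The 5, 6, 7 and 8 h libraries gave 0.841, 0.968, 0.563 and 0.769. The first 7 libraries lay within a narrow band, 6 h stood above it, and 7 and 8 h stood below it.

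ENO2 encodes the enolase that is the main form in cells on glucose and makes phosphoenolpyruvate. Its site (YHR174W, position 1523, listed at chromosome 8, position 453017) started at 0.845, 0.909, 0.803 and 0.807 in the 0, 1, 2 and 3 h libraries and had 0.805 and 0.824 in those of 3.5 and 4 h. It then had 0.722, 0.847, 0.436 and 0.769 in the 5, 6, 7 and 8 h libraries. The 7 h value was the lowest of all 50 values of the 5 sites, and 8 h was back above 5 h.

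CDC19 encodes the main pyruvate kinase, the last enzyme of glycolysis. Its site (YAL038W, position 1720, listed at chromosome 1, position 82408) was cut by 0.836, 0.879, 0.756 and 0.845 in the libraries of 0, 1, 2 and 3 h. At 3.5 and 4 h it had 0.801 and 0.853, and the libraries of 5, 6, 7 and 8 h gave 0.727, 0.939, 0.563 and 0.663. Its values moved up and down between libraries from 1 h on, with the highest at 6 h and the lowest 1 h later.

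ADH1 encodes the alcohol dehydrogenase that makes ethanol in fermenting cells. Its site (YOL086C, position 829, listed at chromosome 15, position 159162) had fractions of 0.924, 0.938, 0.910 and 0.878 in the 0, 1, 2 and 3 h libraries and 0.905 and 0.904 in the 3.5 and 4 h ones. For 5, 6, 7 and 8 h the fractions were 0.902, 0.888, 0.878 and 0.833. The lowest value was at 8 h, and 7 h did not stand apart.

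ADH2 encodes the enzyme that oxidizes ethanol, made when glucose is gone. Its site (YMR303C, position 829, listed at chromosome 13, position 862244) had its highest fractions first, 0.948, 0.942, 0.917 and 0.902 in the libraries of 0, 1, 2 and 3 h. It had 0.895 and 0.924 in the 3.5 and 4 h libraries, and 0.898, 0.892, 0.895 and 0.901 in the 5, 6, 7 and 8 h ones. From 5 h on, its values kept within 0.892 to 0.901.

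**Figure D1:**
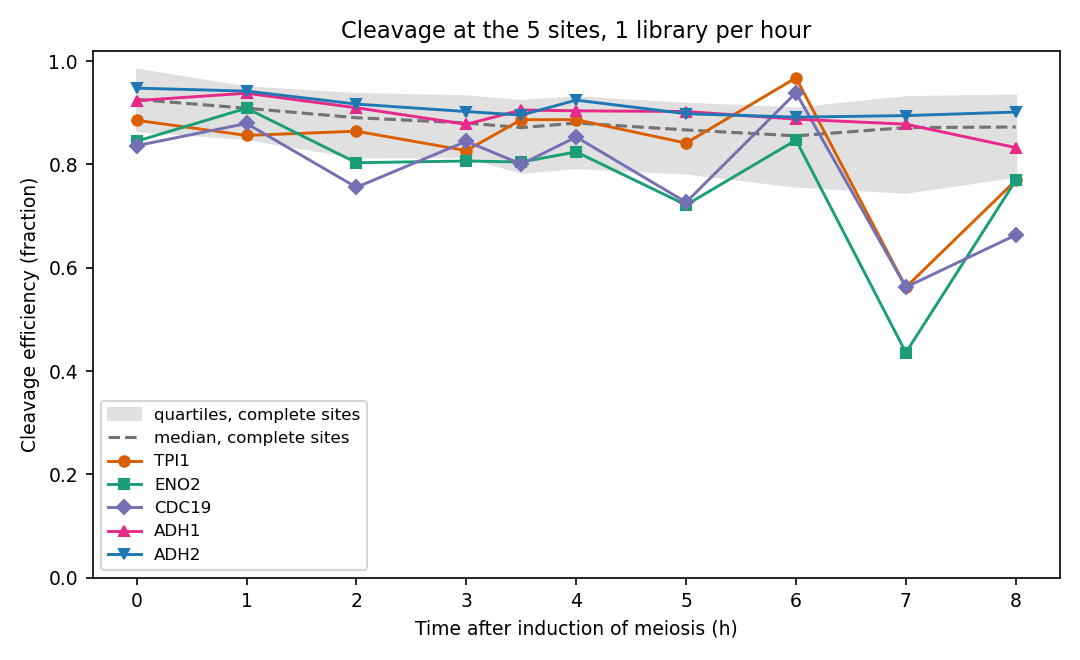
Cleavage efficiency (fraction) at the 5 sites against time after induction of meiosis (h), 1 library per hour, with the median and quartiles of the 214 complete sites in grey. TPI1, ENO2 and CDC19 stand at 0.563, 0.436 and 0.563 at 7 h, while ADH1 and ADH2 stand at 0.878 and 0.895.

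The order of the levels, by the median over the 10 libraries, was ADH1 (0.903), ADH2 (0.902), TPI1 (0.860), CDC19 (0.818) and ENO2 (0.806). Over all complete sites the median of this level was 0.878. Between neighbours in that order the mean difference was smaller in size than its SD over the libraries, and the order was not tested. ADH2 was above ADH1 in 8 of 10 libraries with a mean difference of 0.0156 ± 0.0221 (SD, n = 10 libraries), although its median was the lower. CDC19 was above ENO2 in 5 of 10. TPI1 was above CDC19 in 7 of 10, by 0.0485 ± 0.0529. ADH1 was above TPI1 in 9 of 10, by 0.0612 ± 0.0998, a spread that includes a difference of 0.315 at 7 h. ENO2 was below both alcohol dehydrogenase sites in 10 of 10 libraries.

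The steadiness of the sites differed more than their level. From lowest to highest library, ADH2 spanned 0.0562 and ADH1 0.105, while CDC19 spanned 0.376, TPI1 0.405 and ENO2 0.473. The median span of the 214 complete sites was 0.163, with quartiles at 0.102 and 0.245. Counted from the steadiest, ADH2 was number 16 and ADH1 number 58 of 214, and CDC19, TPI1 and ENO2 were numbers 190, 195 and 204. With 7 h left out, the spans of the glycolytic sites were 0.275 in CDC19, 0.198 in TPI1 and 0.187 in ENO2, against a median of 0.145.

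The largest differences of the 3 glycolytic sites lay between 7 h and its neighbours in time. Set against the mean of 6 and 8 h, the 7 h library was lower by 0.1 or more at 77 of 587 sites (13.1%) and higher by as much at 67 (11.4%), with a median difference of 0.000443. At ENO2 the difference was -0.372, at TPI1 -0.306 and at CDC19 -0.239, numbers 3, 6 and 11 of the 587 counted from the lowest. At ADH1 it was 0.0179 and at ADH2 -0.00195. So 3 of the 5 sites were lower by 0.1 or more and both ADH sites were near the median of all sites.

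Of all 214 complete sites, the 3 glycolytic ones had the 3 largest negative steps between 6 h and 7 h. The step was -0.411 in ENO2, -0.405 in TPI1 and -0.376 in CDC19, and the next in size was -0.282, in MRPL3. Over the complete sites that step had a median of 0.0124, with 127 sites higher and 86 lower at 7 h than at 6 h. The step before it went the other way: from 5 h to 6 h CDC19 was higher by 0.212, the largest such step among the 214, TPI1 by 0.126 and ENO2 by 0.126, where the median step was -0.00398. Larger steps than that of TPI1 were found there at 5 complete sites, and than that of ENO2 at 6. Against the mean of 5 and 7 h, the 6 h value was higher by 0.294 in CDC19, 0.268 in ENO2 and 0.266 in TPI1, numbers 681, 680 and 679 of 683 sites counted from the lowest. By that measure 50 sites (7.32%) were higher by 0.1 or more and 90 (13.2%) lower. From 7 h to 8 h ENO2 was higher by 0.333, TPI1 by 0.207 and CDC19 by 0.101, so that CDC19 and TPI1 stayed below their values of 0 to 6 h. ADH1 and ADH2 moved by -0.0149 and -0.00664 from 5 h to 6 h, and by -0.00967 and 0.00300 from 6 h to 7 h. The 6 h value enters both the step into 6 h and the step out of it. The low 7 h value enters the mean of 5 and 7 h, so the differences from that mean partly restate it. At ENO2 the 6 h value (0.847) was near that of 0 h (0.845) and below that of 1 h (0.909). Of the 214 complete sites, 45 (21.0%) had their lowest value at 7 h, 8 (3.74%) had their highest at 6 h, and 3 had both, CDC19 and TPI1 among them.

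**Figure D2:**
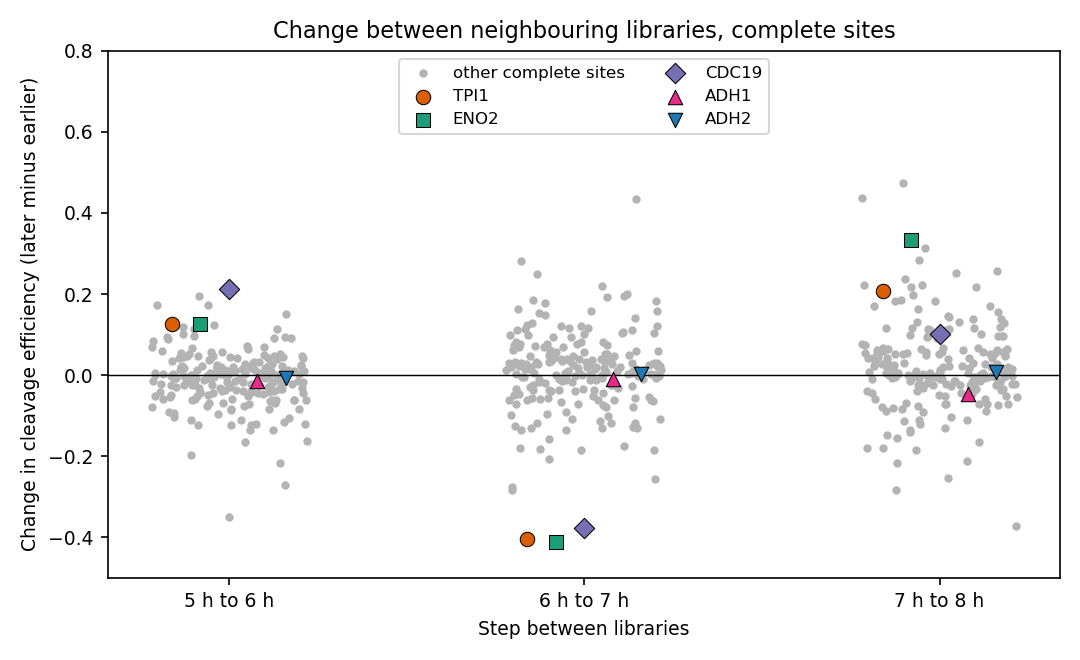
Change in cleavage efficiency (later minus earlier library) for the steps 5 h to 6 h, 6 h to 7 h and 7 h to 8 h, with 1 point per complete site and the 5 sites in colour. TPI1, ENO2 and CDC19 are the 3 lowest points of the step from 6 h to 7 h, at -0.405, -0.411 and -0.376, while ADH1 and ADH2 lie near 0.

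To set 1 library against the line through all others, each library in turn was given a term of its own beside a slope in the hour, over all sites with at least 8 values (limma, Benjamini-Hochberg over all sites tested). For 7 h this called 6 of 562 sites lower (1.07%) and 0 higher, with 33 lower and 20 higher at an unadjusted p under 0.05. ENO2 was the only one of the 5 sites called at 7 h, at -0.339 ± 0.0701 (SE, adjusted p = 0.0499). Earlier results of these data had shown 7 h to be low at 3 of the 5 sites, so the term at 7 h describes known values. The adjustment runs over the sites of 1 hour and not over the hours. The call of ENO2 sat at the threshold. It was lost without any 1 of the 0, 1, 2, 3, 3.5, 4, 6 or 8 h libraries, with adjusted p-values from 0.0671 to 0.130, and on the logit (0.394) and arcsine (0.255) scales. TPI1 departed by -0.287 ± 0.0679 (adjusted p = 0.116) and CDC19 by -0.205 ± 0.0937 (adjusted p = 0.526). In size these terms were numbers 2, 5 and 14 from the lowest of 562. Without 8 h, the adjusted p of TPI1 was 0.0415.

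At 6 h the term was 0.241 ± 0.0790 for CDC19 (adjusted p = 0.454), 0.207 ± 0.0841 for TPI1 (adjusted p = 0.566) and 0.156 ± 0.108 for ENO2 (adjusted p = 0.852). The limma fit called none of 589 sites at 6 h in either direction (34 lower and 10 higher at an unadjusted p under 0.05), so these 3 departures are values, not calls. They were numbers 588, 584 and 577 counted from the lowest. ADH1 and ADH2 departed by 0.0146 ± 0.0338 and 0.00272 ± 0.0292 at 7 h, and neither was called at any hour. Apart from 7 h, limma called 1 site each at 1 h (0.206%), 3.5 h and 4 h (0.169% each), all lower and none of them among the 5. The largest departure of ADH1 was at 8 h, -0.0400 ± 0.0347 (adjusted p = 0.582).

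**Figure D3:**
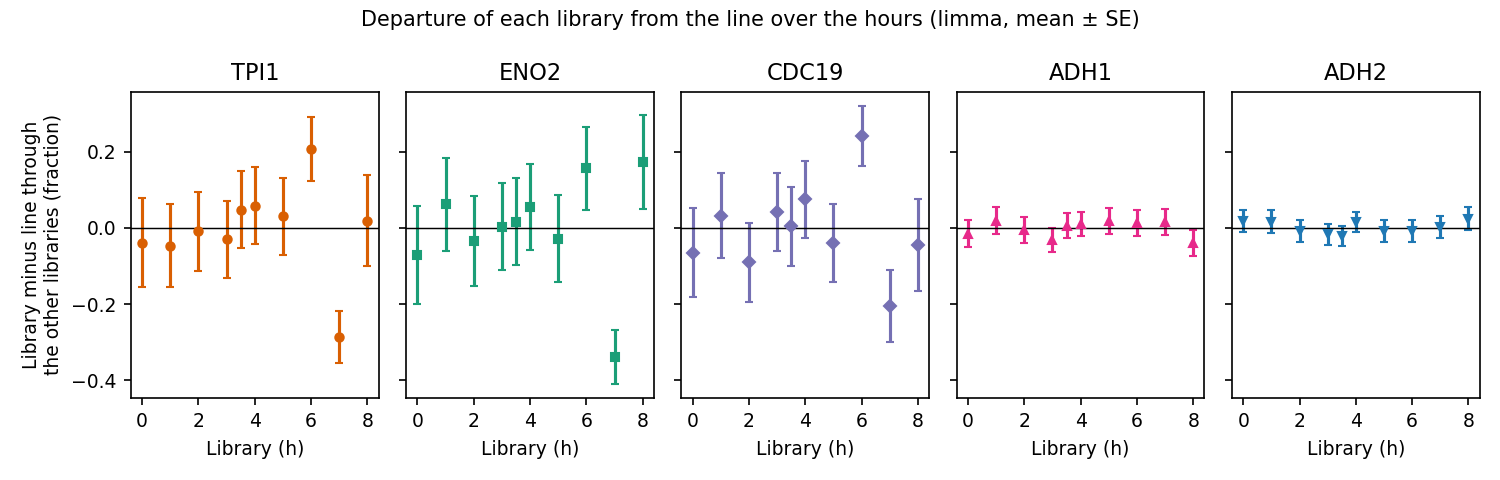
Departure of each library from the line through the other libraries (fraction, limma estimate ± SE) against its hour, for TPI1, ENO2, CDC19, ADH1 and ADH2. ENO2 departs by -0.339 and TPI1 by -0.287 at 7 h, CDC19 by 0.241 at 6 h, and the points of ADH1 and ADH2 all lie between -0.0400 and 0.0241.

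Many values in the table were shared to all digits with another site of the same library, 53.8% of all 8566 values. Values of exactly 1 are in that total but were not counted as shared. ADH2 shared a value in 0 of 10 libraries and ADH1 in 1, while TPI1 did in 3, and CDC19 and ENO2 in 5 each. A complete site did so in a median of 3 libraries. At 7 h all 3 low values were shared ones. TPI1 and CDC19 had the same value as sites in COS7, DNF1 and MDM36, and ENO2 the same as sites in ACH1, YAP5, CAC2 and MDM1. At 8 h TPI1 and ENO2 shared a value with each other and with sites in YBR096W and IRC15. None of the values of the 5 sites occurred in a second library. What sharing says about the reads behind a value is unknown, and its part in the low 7 h values was not tested.

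Across the whole course, all 5 sites had a negative slope in the hour and none passed the test. Among 591 sites with at least 8 values, limma called 18 lower with the hour (3.05%) and 0 higher, with 96 and 8 at an unadjusted p under 0.05. The slope was negative at 430 of the 591 (72.8%). Per hour it was -0.0288 ± 0.0133 for ENO2 (adjusted p = 0.274), -0.0233 ± 0.0120 for CDC19 (adjusted p = 0.332) and -0.0191 ± 0.0118 for TPI1 (adjusted p = 0.407). For ADH1 it was -0.00943 ± 0.00388 (limma, adjusted p = 0.212), and for ADH2 -0.00621 ± 0.00333 (adjusted p = 0.342). ADH1 was the only one of the 5 whose unadjusted p was under the threshold. The median slope was -0.0191 over the 5 sites and -0.00614 over all 591. The residual SD around the line was 0.112 in ENO2, 0.102 in TPI1 and 0.0997 in CDC19, against 0.0169 in ADH1 and 0.0133 in ADH2 and a median of 0.0594 over all sites. Without 7 h the slopes of the glycolytic sites were smaller, -0.0116 in ENO2, -0.0129 in CDC19 and -0.00458 in TPI1. With each library shifted or scaled to 1 median, the slope of ADH1 was -0.00273 or -0.00265 per hour and that of ADH2 0.000495 or 0.000695. The shift also made those of the glycolytic sites smaller, at -0.0124 in TPI1, -0.0166 in CDC19 and -0.0221 in ENO2.

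Late libraries (5, 6, 7 and 8 h) were then compared with early ones (0, 1 and 2 h). ADH2 was cut by 0.896 ± 0.00431 late (SD, n = 4) and 0.935 ± 0.0164 early (SD, n = 3), and the highest of its 4 late values (0.901) was under the lowest of its 3 early values (0.917). ADH1 was cut by 0.875 ± 0.0301 late and 0.924 ± 0.0141 early, again with every late value below every early one. Among the complete sites, 44 of 214 (20.6%) had all late values below all early ones. ENO2 was cut by 0.693 ± 0.179 late and 0.852 ± 0.0531 early, CDC19 by 0.723 ± 0.159 late and 0.824 ± 0.0627 early, and TPI1 by 0.785 ± 0.170 late and 0.869 ± 0.0151 early. In each of these 3 genes 3 of the 4 late values were below every early one, and the 6 h value was not.

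By limma, 18 of 496 sites were lower late (3.63%) and 0 higher, with 98 and 5 at an unadjusted p under 0.05, and none of the 5 sites passed. The difference was -0.159 ± 0.0807 for ENO2 (adjusted p = 0.280), -0.101 ± 0.0749 for CDC19 (adjusted p = 0.469) and -0.0835 ± 0.0732 for TPI1 (adjusted p = 0.537). It was -0.0486 ± 0.0271 for ADH1 (adjusted p = 0.332) and -0.0390 ± 0.0222 for ADH2 (adjusted p = 0.340). All 496 sites had a median difference of -0.0419. Without 7 h the difference of the means was -0.0731 in ENO2, -0.0474 in CDC19 and -0.00926 in TPI1, while it was -0.0495 in ADH1 and -0.0384 in ADH2. Without 6 h it was larger, -0.210 in ENO2 (limma, adjusted p = 0.201), -0.173 in CDC19 (adjusted p = 0.160) and -0.144 in TPI1 (adjusted p = 0.271). With libraries shifted or scaled to 1 median, ADH2 was higher late, by 0.00279 or 0.00409. The difference was then -0.00672 or -0.00605 in ADH1 and -0.0416 or -0.0430 in TPI1. In CDC19 it was -0.0590 or -0.0622, and in ENO2, where it stayed the largest, -0.117 or -0.120.

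ADH1 and ADH2 allow a closer comparison, since their sites are the same base of aligned genes. Their R64 coding sequences, both of 1047 bases, differ at 117 positions (88.8% identity), and the 2 printed windows differ at 7. The site sits in a run of 11 identical bases. Within 50 bases to either side of the ACA there are 24 differences, so a read across the site could be told apart in this reference where it extends past that run. The length of the reads and how the authors treated reads that map to both genes stay not given in the sources used here. All 8 ACA triplets of the ADH2 reading frame also stand at the same place in ADH1. ADH5, another alcohol dehydrogenase gene, has a listed site at the matching place, 367 bases before the end of the stop codon as in ADH1 and ADH2. Its ACA follows AG:
ADH5 (chr2:534436-534465, plus strand): cacggaagaaaaagACAttgttggtgctat

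ADH2 minus ADH1 was between -0.00980 at 3.5 h and 0.0247 at 3 h in the first 9 libraries, and 0.0689 at 8 h, where ADH1 was at its lowest. The ADH5 site had values in 4 libraries only, with 0.903, 1.00, 0.905 and 0.820 for 1, 2, 3 and 3.5 h. Its 3.5 h value was below those of ADH1 (0.905) and ADH2 (0.895). For the ENO2 and CDC19 sites, which lie past the stop codon, no matching place in the paralog was aligned. Each window was instead set against every 30-base stretch of the paralog's reading frame and flanks. The counts that follow are thus not differences at a matching site. The closest stretch of ENO1, the enolase gene whose coding sequence is 94.8% identical to that of ENO2, differed from the ENO2 window at 13 of 30 bases, and that of PYK2 from the CDC19 window at 11.

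**Figure D4:**
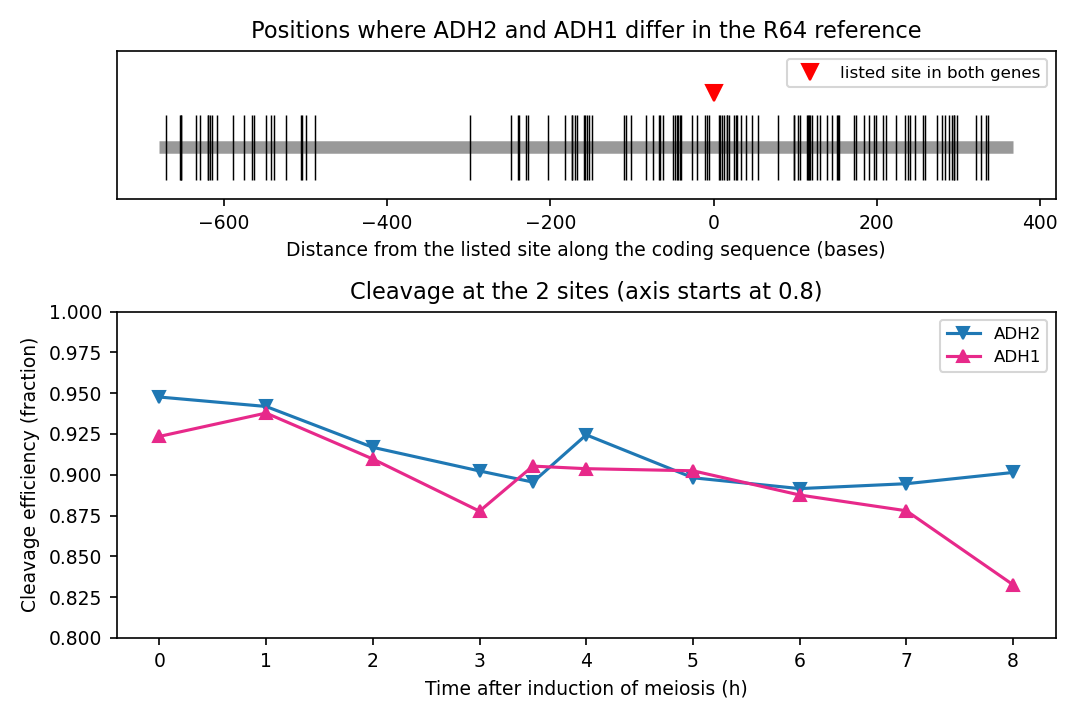
Upper panel, distance (bases) of each position where the ADH2 and ADH1 coding sequences differ from the listed site, in the R64 reference. Lower panel, cleavage efficiency (fraction, axis from 0.8) of ADH2 and ADH1 against time (h), which lie within 0.0247 of each other up to 7 h and 0.0689 apart at 8 h.

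The other listed genes of the pathway ran from nearly uncut to fully cut. A list of 26 genes of glycolysis and fermentation had 10 sites in 9 genes, the 5 above included. By limma, 8 sites had enough values for the slope, 7 of them were negative and 0 passed in either direction, with 1 (ADH1) at an unadjusted p under 0.05. Over all 591 sites 72.8% were negative and 3.05% were called lower, so these counts are near that background. The median slope over these 8 was -0.00860. FBA1, the aldolase whose products TPI1 interconverts, was cut by 0.00442 to 0.0173 with a median of 0.00709, although its ACA follows GG. PGK1, phosphoglycerate kinase, was cut by 0.243 at 0 h, 0.0804 at 4 h and 0.189 at 8 h. PFK2, a subunit of phosphofructokinase, had a site past its stop codon with GA before the ACA, as in ENO2, which was cut by 0.758 to 0.865, and a site with GG in the coding sequence, which was cut by 0.943 to 1.00 in 7 libraries.
FBA1 (chr11:326607-326636, minus strand): caaggtcaacttggACActgactgtcaata
PGK1 (chr3:138669-138698, plus strand): ctggcaagggttggACAatggtccagaatc
PFK2 past the stop codon (chr13:671765-671794, minus strand): ctctaagcttttgaACAatgaattttttgt

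These windows are shown because FBA1 and PGK1 carry the same GG as ADH1 and ADH2 and were cut far less. The other sites of the list with values at 6, 7 and 8 h were measured in the same way. Against the mean of 6 and 8 h, the difference was -0.0363 in PGK1, -0.0651 in PFK2 at position 3136 and 0.0109 in FBA1. At 7 h this PFK2 site had its lowest value (0.758) and FBA1 its highest (0.0173). FBA1 is cut too little to be lower by 0.1, so its value says nothing about such a difference. PGK1, cut by 0.142 at 6 h and 0.189 at 8 h, had little room for it and was not lower by that much.

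**Figure D5:**
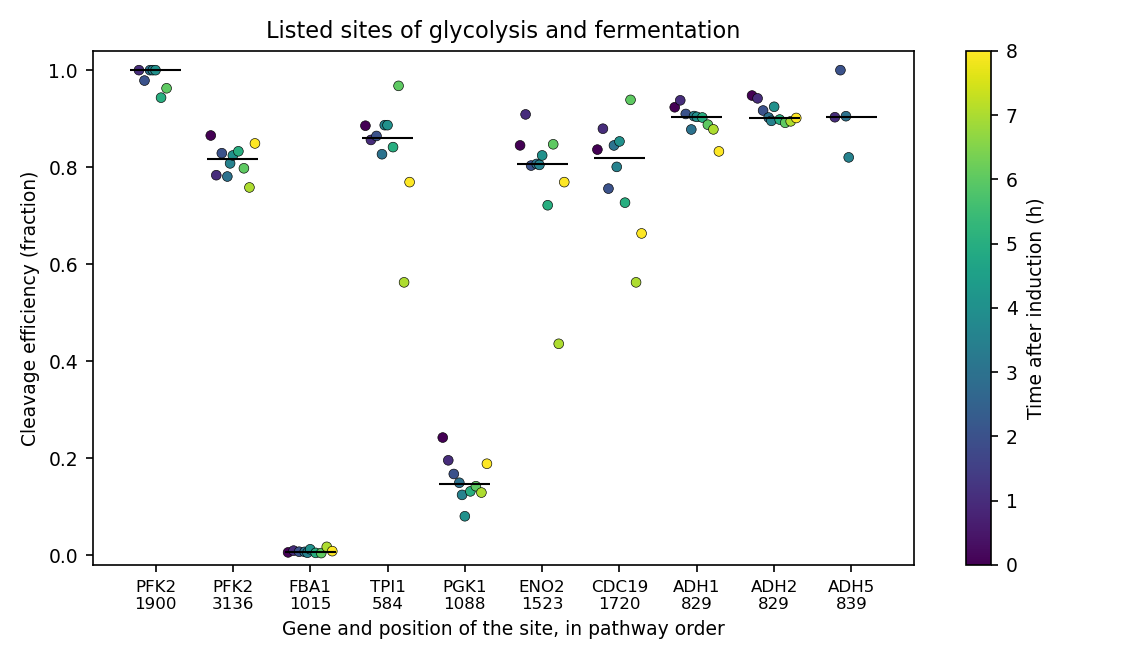
Cleavage efficiency (fraction) at each listed site of glycolysis and fermentation in pathway order, with 1 point per library coloured by hour and a bar at the median. FBA1 reaches no more than 0.0173, PGK1 between 0.0804 and 0.243, and the 7 h points of TPI1, ENO2 and CDC19 lie below the other hours of their sites.

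Neighbouring parts of carbon metabolism were looked at in the same way. Of 17 genes of acetate use and gluconeogenesis, 7 had 9 sites. Of these, 6 sites were tested, 5 had a negative slope and 0 passed (0 also at an unadjusted p under 0.05, limma). Late against early, 0 of the 6 passed and 2 were lower at an unadjusted p under 0.05 (limma), where 98 of all 496 sites were. Their median difference was -0.0570, against -0.0419 over all sites. None of the 6 was lower at 7 h by 0.1 or more, where 13.1% of all sites were. Of 13 genes of storage carbohydrates, 3 had a site, all 3 with a negative slope and 0 passing (limma, 1 at an unadjusted p under 0.05). Late against early, 0 of these 3 passed, 0 also at an unadjusted p under 0.05 (limma). With 72.8% of all 591 sites negative and 3.05% called lower, the slope counts of both lists are near background. The hexose transporters had 0 sites in 7 genes. Among 6 regulators of these genes, ADR1, the activator of ADH2, had a site with values in 4 libraries only, with 0.766, 0.744, 0.895 and 0.632 for 3.5, 4, 5 and 6 h.

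The courses of the 3 glycolytic sites were alike over the 10 libraries, and between TPI1 and ENO2 much of that likeness rested on 7 h. Without 6 and 7 h they were no more alike than some pairs of a glycolytic and an ADH site. Pearson's r over the 10 libraries, given as a description of sites that share libraries, was 0.896 between TPI1 and ENO2, 0.885 between TPI1 and CDC19 and 0.856 between CDC19 and ENO2. Over the 9 libraries without 7 h it was 0.443, 0.790 and 0.759. Between ADH2 and ADH1 it was 0.653 with and 0.631 without 7 h. For pairs of a glycolytic and an ADH site, r was 0.257 to 0.499 over the 10 libraries. Without 7 h it ran from -0.00153 (ADH2 with TPI1) to 0.612 (ADH2 with ENO2). Without 6 and 7 h it ran from 0.439 (ADH2 with TPI1) to 0.834 (ADH1 with TPI1). Among the glycolytic sites it was then 0.406 to 0.784. TPI1 and CDC19 had an identical value at 7 h, and TPI1 and ENO2 at 8 h.

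Of the other complete sites, the 3 most alike in course over the 10 libraries were listed for each member. PPH21 was among the 3 for ENO2, TPI1 and CDC19, and FUN19 and YBR096W for both TPI1 and CDC19. An r over 0.8 was reached by 9 sites with ENO2, 6 with TPI1 and 1 with CDC19, and by 15 with ADH2 and 3 with ADH1. For ENO2 they were PPH21 (r = 0.945), a phosphatase catalytic subunit, UBP13 (0.945), a ubiquitin protease, and NCE102 (0.926). For TPI1 they were FUN19 (0.931), YBR096W at position 755 (0.883) and PPH21 (0.852). For CDC19 they were YBR096W at position 755 (0.900), FUN19 (0.795) and PPH21 (0.789). Without 7 h these r values lay between 0.254 (PPH21 with TPI1) and 0.790 (YBR096W with CDC19). PPH21 was cut by 0.784 at 7 h, with 0.919 at 6 h and 0.912 at 8 h, a smaller difference than in the 3 glycolytic genes.

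For ADH2 the most alike were AIM41 (r = 0.924), TVP15 (0.906) and HSC82 (0.900), a cytosolic chaperone. AIM41 covered a far wider span, from 0.469 to 0.881. For ADH1 they were YNL195C (0.859), the ATP synthase subunit gene ATP2 (0.844) and GDB1 (0.815), of glycogen breakdown. These sites were picked for their likeness among 214, so the r values describe and do not test it.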

How the data were processed

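The deposited table holds 1 cleavage efficiency per site and library, a fraction that the authors computed from MazF-treated polyA RNA, per the file headers, and leaves some cells empty. The submitters' processing notes name STAR 2.5.3a and bedtools 2.26.0. Coverage, the build and the reason for empty cells stay not given in the sources used here. Columns were matched to hours by name. The other 4 columns of values match no label, so they were not used, and the planned comparison of the ime4 deletion with wild type was not made. Of 1198 rows, 14 repeats of a position were removed.

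The members, the gene lists and the look at 7 h were chosen with earlier results of these data known. Named sites were the 5 members, the other glycolysis sites and, for each member, the 3 other complete sites with the highest Pearson's r, and the sites sharing a member's 7 h value. MRPL3, ADR1 and the sites sharing an 8 h value were named after their values were seen.

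Slopes, late against early windows (at least 2 values per window) and single-library terms were fitted with limma 3.58.1 in R 4.3.3 on the fraction as deposited, over sites with at least 8 values, with a mean-dependent prior variance and Benjamini-Hochberg adjustment at 0.05 over all sites tested. The fits were tested on simulated data, with scatter drawn independently for each site and library. Shifts shared by the sites of a library were not simulated, so that test does not cover them. P-values treat scatter around the line or window mean as the error. Sequences came from NCBI RefSeq R64, read with Biopython 1.88 in Python 3.11.15. Alternatives covered scale, normalization, prior variance, filters, windows, shape over time and leaving out each library.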

Additional observations from a re-analysis of the deposited data

How the results depend on the processing

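None of the 5 sites passed for the slope or for late against early under any alternative run with limma. As reported, 1 (slope) and 0 (late against early) of the 5 had an unadjusted p under 0.05. At 7 h, 3 of the 5 sites were lower by 0.1 or more with libraries shifted or scaled and against the median of the other 9 libraries, and on the logit scale 3 were among the 77 lowest of 587 sites. The single-library term at 7 h called 1 of the 5, and 0 to 1 without any 1 library. It called 0 on the logit and arcsine scales, 2 (ENO2 and TPI1) among complete sites only, and 2 with no slope in the hour. Over all sites it called 6 lower, 0 on the logit or arcsine scale and 0 to 5 without any 1 library.

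The count of all sites with a falling slope was 18. It was 0 with libraries shifted or scaled to 1 median, 8 among complete sites, 0 with at least 4 values, 28 lower and 4 higher at the last library than at the first in a fitted spline, and 0 to 50 without any 1 library. Leaving out 1, 2, 3, 3.5, 4 or 5 h gave the 0, and leaving out 8 h the 50. Late against early, 18 sites were lower. With libraries shifted to 1 median 7 were lower and 4 higher, with libraries scaled 16 were lower and 7 higher, with 3 h among the early libraries 0 were lower, and without any 1 library 0 to 29 were, with 0 without 1, 3.5, 6 or 7 h and 29 without 8 h. Where these counts of lower sites were 0, limma had 59 and 61 (slope, shifted and scaled), 167 (at least 4 values), 97 (3 h among the early) and 10 and 16 (7 h, logit and arcsine) at an unadjusted p under 0.05, and 32 to 97 where 1 library was left out.

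ADH2 changed sign when libraries were shifted or scaled to 1 median, with slopes of 0.000495 and 0.000695, late differences of 0.00279 and 0.00409 and 7 h terms of -0.0100 and -0.0105. With no slope in the hour the 7 h terms of ADH2 and ADH1 were -0.0188 and -0.0199, and without any 1 library that of ADH1 ran from -0.00226 (without 8 h) to 0.0195. The cause of these differences was not tested. Unknown depth limits every value. No paired analysis was possible because each hour has 1 library and no control column could be tied to a replicate number. The planned fits on the ime4 deletion were not run.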
